A study of Homo sapiens with 4 samples.

Results

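The barcodes described here were found in single-nucleus chromatin accessibility libraries of Panc1, a human pancreatic ductal carcinoma line, transplanted into mice. A barcode was selected when it held 300 to 10000 counts in its library and at least 1 count in a peak within 1 kb of either boundary of IKZF1 or BPIFB1 on the build GRCh38. The rule found 362 of 14568 barcodes, of which Carrier 12 held 35, Carrier 31 held 101, Inflachromene 11 held 145 and Inflachromene 35 held 81. Each of the 4 libraries came from the pancreas of 1 mouse, named by its group and mouse number. The Carrier mice (12 and 31) had received the vehicle, and the Inflachromene mice (11 and 35) inflachromene, a small molecule that binds the chromatin proteins HMGB1 and HMGB2. Panc1 cells are common to all 4, and no source used here gives the host strain, age, dose or duration. Since a group is 2 mice, p-values rest on 4 libraries in all. Those of edgeR use a spread pooled over all features tested. A very small p therefore does not measure how far a single gene varied between mice. The selected barcodes were put forward as probable mouse host nuclei, but the matrices hold counts on a human build alone. The species of a barcode was therefore not measured, and the barcodes are called by their rule.

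In this assay a transposase cuts DNA where chromatin is open, so that promoters and enhancers in use collect many counts and closed chromatin few. IKZF1 encodes Ikaros, a zinc finger regulator of blood cell development, and its promoter is open in blood cells. BPIFB1 encodes a secreted protein of airway and salivary epithelium. HMGB2, an abundant chromatin protein of dividing cells and a target of inflachromene, was named together with the rule. Its level in these barcodes was therefore known beforehand and is given as a description.

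The upstream sequences of 5 genes are shown because the values below turn on them: IKZF1 chose the barcodes, H2AC25 and TEF were higher in them, and WDR6 and PSMA3 had no count in them. Each is the 250 bases before the start site on the gene's own strand, from RefSeq (GRCh38.p14). Capitals mark the box read by the factor NF-Y (CCAAT, or ATTGG on the other strand).
IKZF1 (chr7:50304466-50304715, + strand): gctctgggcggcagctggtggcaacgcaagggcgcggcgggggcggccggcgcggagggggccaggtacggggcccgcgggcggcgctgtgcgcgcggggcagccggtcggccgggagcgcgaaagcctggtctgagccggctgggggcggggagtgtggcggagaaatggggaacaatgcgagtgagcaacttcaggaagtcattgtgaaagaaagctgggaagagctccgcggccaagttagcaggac
H2AC25 (chr1:228457874-228458123, - strand): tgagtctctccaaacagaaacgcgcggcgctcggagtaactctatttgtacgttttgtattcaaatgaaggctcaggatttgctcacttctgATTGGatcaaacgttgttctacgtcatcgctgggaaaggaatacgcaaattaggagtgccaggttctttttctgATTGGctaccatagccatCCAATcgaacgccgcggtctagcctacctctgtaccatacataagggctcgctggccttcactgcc
TEF (chr22:41367205-41367454, + strand): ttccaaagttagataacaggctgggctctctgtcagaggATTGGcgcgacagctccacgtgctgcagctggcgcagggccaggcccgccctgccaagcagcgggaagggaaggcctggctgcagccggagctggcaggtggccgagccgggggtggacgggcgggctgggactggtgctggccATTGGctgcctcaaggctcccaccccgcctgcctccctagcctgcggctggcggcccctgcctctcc
WDR6 (chr3:49007141-49007390, + strand): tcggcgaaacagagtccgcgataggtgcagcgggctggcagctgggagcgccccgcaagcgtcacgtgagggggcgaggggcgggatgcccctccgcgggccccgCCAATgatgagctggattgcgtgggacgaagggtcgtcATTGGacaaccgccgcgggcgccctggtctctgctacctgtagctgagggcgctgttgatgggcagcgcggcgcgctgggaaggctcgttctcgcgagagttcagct
PSMA3 (chr14:58244593-58244842, + strand): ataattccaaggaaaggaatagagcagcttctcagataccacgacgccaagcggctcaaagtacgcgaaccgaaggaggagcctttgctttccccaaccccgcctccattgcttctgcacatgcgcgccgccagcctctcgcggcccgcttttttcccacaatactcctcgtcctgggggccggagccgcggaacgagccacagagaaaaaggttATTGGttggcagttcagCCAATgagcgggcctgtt
All 5 windows overlapped a peak in each of the 4 libraries. H2AC25 holds 3 CCAAT boxes, TEF 2, WDR6 2 and PSMA3 2, while IKZF1 holds none.

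The values that chose the barcodes are given first, as a description. Over the 4 libraries 163 barcodes had a count near BPIFB1 alone, 165 near IKZF1 alone and 34 near both. Carrier 12 had no peak within 1 kb of BPIFB1, so all its 35 barcodes were selected by IKZF1. The BPIFB1 peak lay about 1 kb before the gene (chr20:33281321-33282222 in Inflachromene 11), and the IKZF1 peaks covered its start (chr7:50304242-50305046 and a neighbour in Carrier 12). Among barcodes of 1000 to 2000 counts, IKZF1 stood at 112, 152, 211 and 104 CPM (counts scaled to a total of 1000000 in the barcodes concerned) in Carrier 12, Carrier 31, Inflachromene 11 and Inflachromene 35. Barcodes of 10000 or more counts, called deep barcodes below, had 2.39, 2.24, 2.77 and 1.61 CPM. BPIFB1 stood at 163, 179 and 179 CPM in barcodes of 1000 to 2000 counts of the 3 libraries with a peak, and at 2.35, 2.14 and 1.5 CPM in the deep ones. At the edges of the rule, 2 of 717 barcodes of 250 to 300 counts and 6 of 461 of 300 to 350 counts had a count at either gene. At the upper edge these were 3 of 125 barcodes of 9000 to 10000 counts and 2 of 137 of 10000 to 11000 counts.

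**Figure D1:**
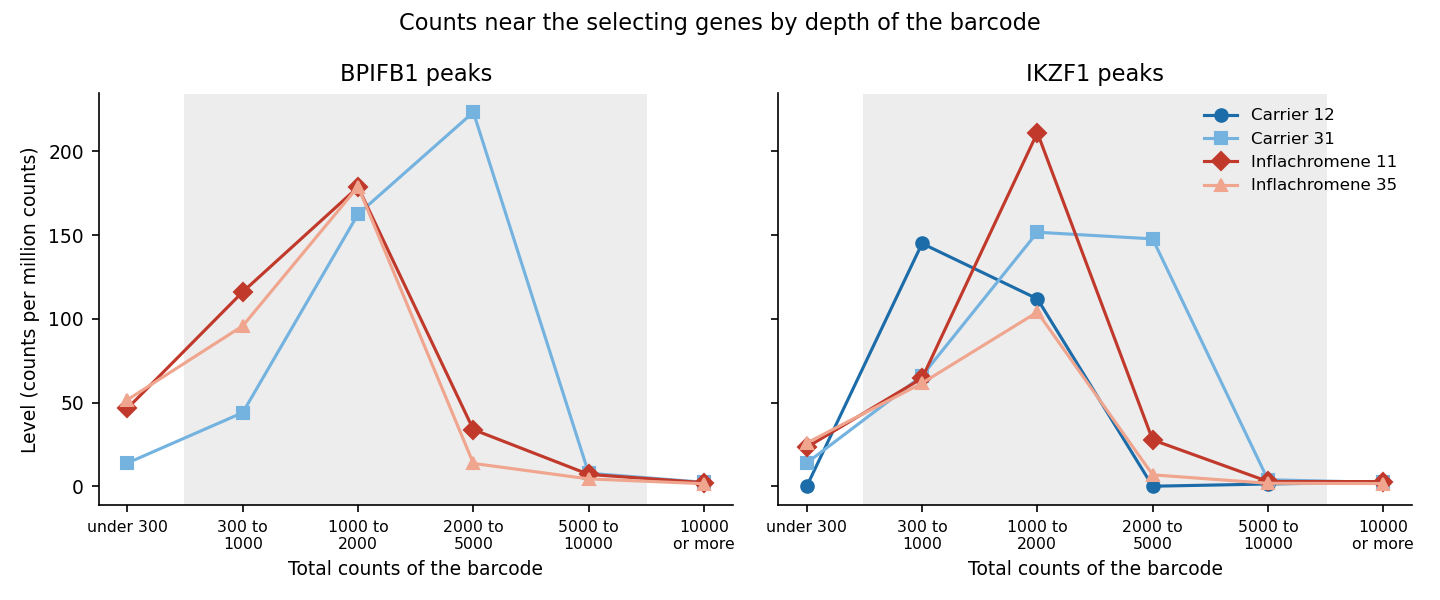
Level near BPIFB1 (left) and IKZF1 (right), in CPM over all barcodes in a depth bin (y axis), against the total counts of the barcode (x axis), 1 line per library. The shaded bins lie within the rule; Carrier 12 has no BPIFB1 peak, and the IKZF1 level is 104 to 211 CPM at 1000 to 2000 counts against 1.61 to 2.77 CPM at 10000 or more.

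The selected barcodes were shallow. Their median was 1533.5 counts, with medians of 819 and 2524 counts in Carrier 12 and Carrier 31 and of 1512 and 1401 counts in Inflachromene 11 and Inflachromene 35. Their counts summed to 39809, 239672, 246772 and 132923 in the same order, 0.508% of all counts deposited. Library totals lay between 27088391 and 39947056 counts. The comparison groups were the 5315 deep barcodes and the 4089 other barcodes of 300 to 10000 counts, called other shallow barcodes. Between 92.5% and 95.2% of the selected barcodes' entries above 0 were even, against 81.9% to 84.5% in deep barcodes, since both ends of a fragment tend to fall in the same peak. Thus 2 counts are often 1 molecule. Some barcode sequences occurred in more than 1 library, most often 1209 in Carrier 12 and Inflachromene 11. Of the selected barcodes 7 had such a namesake. Among deep barcodes 651 of 1768 in Carrier 12 and 258 of 684 in Carrier 31 had none. In Inflachromene 11 these were 1114 of 1137 and in Inflachromene 35 1703 of 1726.

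Mice of both treatments held the selected barcodes, at shares of all barcodes of 0.675%, 4.95%, 3.57% and 2.47% in Carrier 12, Carrier 31, Inflachromene 11 and Inflachromene 35. Their exact 95% intervals, which cover counting error only, were 0.471% to 0.937%, 4.05% to 5.99%, 3.02% to 4.18% and 1.97% to 3.06%. Both the lowest and the highest share came from Carrier mice, so the groups overlap. Carrier mice averaged 2.81% and Inflachromene mice 3.02%, a difference of 0.205 percentage points (two-sided exact permutation p = 1, where 0.333 is the smallest p the design allows). With IKZF1 as the only selecting gene the difference turned to -0.135 points. Without Carrier 12 it was -1.93 points, and without Inflachromene 11 -0.342 points.

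HMGB2 (chr4:173331376-173334358) stood at 302, 464, 430 and 467 CPM in the selected barcodes of Carrier 12, Carrier 31, Inflachromene 11 and Inflachromene 35. In deep barcodes it stood at 43.9, 53.9, 51.3 and 43.7 CPM, so the 2 sets of libraries do not overlap. The values came from the gene's ends, meaning all peaks within 1 kb of either outer boundary, with the peaks of the 2 selecting genes left out of every total. The mean was 416 ± 77.6 CPM (SD, n = 4 libraries) against 48.2 ± 5.20 CPM, a log2 fold change of 3.06 (SE 0.27). Other shallow barcodes lay between, at 108, 147, 136 and 89.6 CPM, and the selected barcodes were above them by 1.73 on the log2 scale (SE 0.22). Among selected barcodes of 300 to 1000 counts HMGB2 stood at 560, 1718, 878 and 291 CPM, from only 8, 10, 16 and 4 counts. The other depths of the selected barcodes would give 2.24, 2.52, 7.18 and 6.70 counts there, so Inflachromene 35 lay below that level. HMGB1, the other target of inflachromene, had 151, 100, 73.0 and 151 CPM in selected and 59.2, 69.6, 66.9 and 53.3 CPM in deep barcodes. All 4 libraries point upward for HMGB1, yet the log2 fold change of 0.77 (SE 0.38) missed the threshold (edgeR adjusted p = 0.0914).

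Over all 12812 gene ends measured, 1732 (13.5%) were higher and 3139 (24.5%) lower in the selected than in the deep barcodes at an edgeR adjusted p under 0.05, or 38% in all. The median log2 fold change was -0.74. DESeq2, by which that median was -1.40, called 1138 higher and 5518 lower. Every count of a gene list below is to be read against these shares. The libraries of the selected and deep barcodes did not overlap, with the selected ones higher, at 14.9% of gene ends, and lower at 34.2%. Against other shallow barcodes, 1199 of 10731 gene ends (11.2%) were higher and 2051 (19.1%) lower, 30.3% in all, and DESeq2 called 680 higher and 3714 lower. Without a filter on low counts these were 945 and 2223, and without Carrier 31 523 and 524. Without Inflachromene 11 the calls in both directions numbered 1722. The calls against deep barcodes fell to 1057 higher and 1028 lower without Carrier 31, and to 783 and 1580 without Inflachromene 11.

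Of the gene ends named by size of rise 4 are known from myeloid cells or leukocytes, a grouping made after the genes were seen; the fixed myeloid list, below, has 1 of 9 higher. HCAR2, the niacin receptor of neutrophils, macrophages and fat cells, had 151, 159, 73.0 and 181 CPM in the selected barcodes of Carrier 12, Carrier 31, Inflachromene 11 and Inflachromene 35. Deep barcodes had 1.31, 0.974, 1.26 and 0.937 CPM. The log2 fold change of HCAR2 was 6.84 (SE 0.69, edgeR adjusted p = 4.95e-21), the largest of those named. TREML4, a receptor of myeloid cells, had 151, 58.5, 146 and 105 CPM in selected barcodes. Deep barcodes had 1.15 to 1.59 CPM of TREML4, and the log2 fold change was 6.30 (SE 0.76). PLXNC1, a semaphorin receptor found on leukocytes, had 378, 159, 223 and 121 CPM against 2.92 to 5.24 CPM (log2 fold change 5.60, SE 0.44). NCKAP1L, the blood cell subunit of the WAVE complex that drives actin branching, had 151, 167, 170 and 30.1 CPM against 1.13 to 6.28 CPM (log2 fold change 5.25, SE 0.67). Its region is shared with PDE1B, so that the 2 genes cannot be told apart. In these 4 genes every library of selected barcodes lay above every library of deep barcodes.

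Of the 15 gene ends named by size of rise, H2AC25 had the most counts. H2AC25, a histone H2A gene whose region also serves its neighbour H2BC26, had 856, 1132, 954 and 603 CPM in selected barcodes. Deep barcodes had 16.8, 21.8, 18.7 and 20.1 CPM, and the log2 fold change was 5.41 (SE 0.26, edgeR adjusted p = 6.82e-95). H4C9, a histone H4 gene that shares its region with H2BC12, had 151, 109, 97.4 and 105 CPM against 3.56 to 6.89 CPM (log2 fold change 4.44, SE 0.67). The 59 replication-dependent histone genes measured did not move as a block. Of them 9 were higher and 23 lower, with a median log2 fold change of -1.21; H2AC11 was among the lower ones (log2 fold change -2.45, SE 0.49).

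Of the 9 other gene ends named by size of rise, 4 encode transcription factors. KLF9, a glucocorticoid-responsive zinc finger factor, had 327, 451, 381 and 362 CPM in selected barcodes. In deep ones it had 9.76, 10.5, 12 and 10.2 CPM (log2 fold change 5.10, SE 0.31). TEF, a basic leucine zipper factor of the circadian output, had 352, 167, 227 and 90.4 CPM against 3.28 to 5.09 CPM (log2 fold change 5.37, SE 0.45). EGR3, an immediate early zinc finger factor, had 201, 309, 231 and 196 CPM against 7.79 to 9.56 CPM (log2 fold change 4.71, SE 0.37). FOXE1, a forkhead factor of thyroid development, had 151, 109, 162 and 90.4 CPM against 2.35 to 4.19 CPM (log2 fold change 5.24, SE 0.65). The selected barcodes of each library stood at least an order of magnitude above the deep ones for these 4 factors.

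The remaining gene ends named by size of rise were CDYL2, a chromodomain protein (log2 fold change 5.54), TNFAIP6, a hyaluronan-binding protein induced in inflammation (5.15), and SPSB4, an adaptor of a ubiquitin ligase (4.81). PHF2, a histone demethylase, was higher by 4.57 and ADAMTS9, a secreted metalloprotease, by 4.54. TNFAIP6 was the most variable, at 151, 58.5, 48.7 and 15.1 CPM in selected barcodes against 0.839 to 1.87 CPM in deep ones. All 15 were also higher than in other shallow barcodes at an edgeR adjusted p under 0.05, with log2 fold changes of 1.78 (SPSB4) to 2.80 (HCAR2). With IKZF1 alone as the selecting gene, ADAMTS9 (adjusted p = 0.346), CDYL2 (0.0701), FOXE1 (0.0608), SPSB4 (0.0925) and TNFAIP6 (0.181) no longer passed against other shallow barcodes. TNFAIP6 missed the threshold there also without Carrier 12, Carrier 31 or Inflachromene 11, ADAMTS9 without Carrier 31 or Inflachromene 11, and TREML4 and SPSB4 without Inflachromene 11. With an upper bound of 5000 counts TNFAIP6 (adjusted p = 0.213) and SPSB4 (0.0510) missed it as well. SMARCA2 and DYRK1A were picked after their values were seen. SMARCA2, the BRM helicase of the BAF complex, had 956, 781, 694 and 512 CPM against 26.7 to 37.0 CPM (log2 fold change 4.44, SE 0.25). DYRK1A, a protein kinase, had 1057, 936, 755 and 738 CPM against 46.5 to 55.5 CPM (log2 fold change 3.99, SE 0.24).

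**Figure D2:**
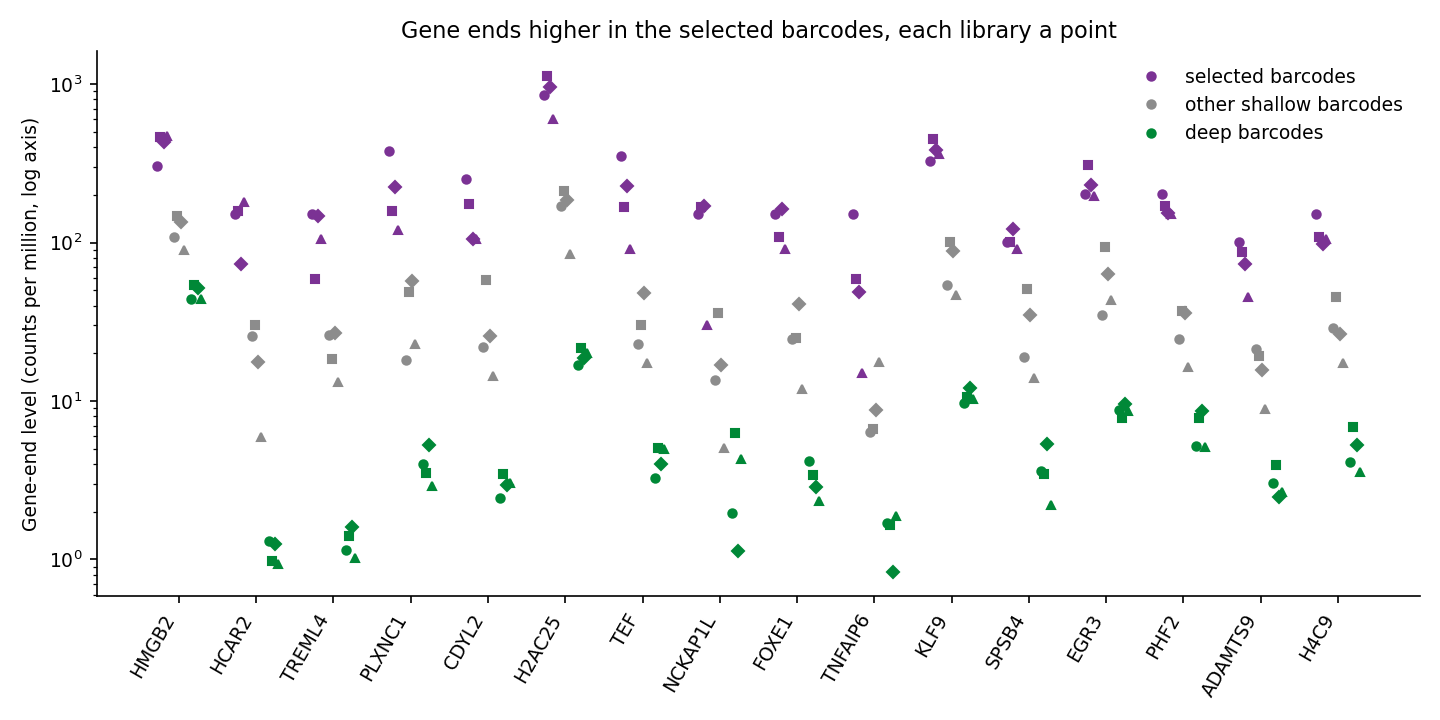
Gene-end level in CPM on a log axis for HMGB2 and the 15 gene ends named by size of rise, in selected (purple), other shallow (grey) and deep (green) barcodes; each point is 1 library, with circles for Carrier 12, squares for Carrier 31, diamonds for Inflachromene 11 and triangles for Inflachromene 35. For these genes all selected libraries lie above all deep ones, and H2AC25 is highest at 603 to 1132 CPM.

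The gene ends lowest by log2 fold change had no count at all in the selected barcodes. A count of 0 pushes that estimate far down, so the rank favours zeros and does not order the falls by size. Gene ends with a few counts can have fallen as far. WDR6, a WD-repeat protein whose region is shared with P4HTM, stood at 56.5, 84.2, 81.7 and 56.2 CPM in deep and at 63.1, 62.7, 66.8 and 50.3 CPM in other shallow barcodes. At the deep barcodes' level 50 counts were expected of WDR6 in the selected barcodes of all libraries together, and 0 were found. A count of 0 allows up to 3 fragments, taken as 6 counts over the group since both ends are counted, and against that limit WDR6 was at least 8.33-fold lower (edgeR adjusted p = 1.36e-07). The same bound gave at least 7.56-fold for ZNF571, a zinc finger gene of chromosome 19, 7.12-fold for CC2D1B and 7.11-fold for DCAF4, an adaptor of a cullin ubiquitin ligase. PSMA3, a subunit of the 20S proteasome core, had 52.7, 58.1, 55.8 and 49.1 CPM in deep and 0 in selected barcodes (at least 6.05-fold lower, adjusted p = 1.06e-05). The other 10 named by this rank were SCGB2B2, UCP2, KIAA1191, SPNS1, TCP11L1, TUBGCP5, THEM6, XRRA1 (sharing its region with SPCS2), TRMO and ZFP69B. They include a mitochondrial carrier (UCP2), a part of the gamma-tubulin complex (TUBGCP5) and a tRNA methyltransferase (TRMO), and had bounds of 5.65-fold (ZFP69B) to 7.12-fold (SCGB2B2).

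These zeros were part of a wider pattern. Of 7976 gene ends with at least 20 counts expected in the selected barcodes from the deep level, 89 had none (1.12%). None of the 12792 gene ends with that expectation in the other shallow barcodes was at 0, but those hold far more counts. Where at least 100 counts were expected in the selected barcodes (112 gene ends), 68 were more than 2-fold lower and 11 more than 2-fold higher. These 112 were chosen by a high level in deep barcodes, a choice that favours falls. In other shallow barcodes, which hold far more counts, none of the same 112 differed by 2-fold in either direction.

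Genes that the whole body uses were more often lower than higher. Of 15 housekeeping genes 7 were lower and 1 higher, with a median log2 fold change of -1.37. TBP, the TATA-binding protein, had 0, 0, 20.3 and 7.53 CPM in selected barcodes against 124, 137, 136 and 120 CPM in deep ones (log2 fold change -3.87, SE 0.57). YWHAZ, a 14-3-3 protein, went the other way, at 403, 368, 325 and 316 CPM against 87.0 to 109 CPM (log2 fold change 1.72, SE 0.26). Of 80 cytosolic ribosomal protein genes 42 were lower and 3 higher (median log2 fold change -1.68). RPL28 was seen in the selected barcodes of Inflachromene 35 only, at 30.1 CPM, against 99.6 to 123 CPM in deep ones (log2 fold change -4.17, SE 0.64). RPL19 was higher, at 151, 150, 146 and 97.9 CPM against 24.4 to 34.0 CPM (log2 fold change 2.25, SE 0.43). For RPL19 and YWHAZ every selected library lay above every deep one.

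Zinc finger genes of chromosome 19 were lower or did not pass. They lie in clusters that expanded in primates, and most of their proteins repress transposable elements and other targets through a KRAB domain. Of 190 measured (of 246 listed), 100 were lower (52.6%, against 24.5% of all gene ends) and 0 higher, with a median log2 fold change of -2.20. With genes at 0 set at their bound the median was -1.92, and 22 of the 190 had no count. DESeq2 called 147 of them lower and 0 higher. ZNF584 had 50.3 CPM in selected barcodes of Carrier 12 and 0 in the other 3 libraries, against 90.1 to 104 CPM in deep ones (log2 fold change -4.89, SE 0.78). ZNF780A had 151, 0, 20.3 and 45.2 CPM against 239 to 285 CPM (log2 fold change -3.20, SE 0.38). ZNF324 was lower by -2.58 and ZNF546 by -2.62 on the same scale. ZNF780A (chr19:40069152-40090943) and ZNF546 (chr19:39997060-40021038) lie at 38 to 42 Mb of the chromosome, where Panc1 has an amplification. Leaving out the genes there left 97 of 187 lower and 0 higher.

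Markers of blood cells went in both directions. Of 15 pan-hematopoietic markers 7 were measured, IKZF1 being left out by the rule; 4 of the 7 were higher and 1 lower (median log2 fold change 2.33). Besides NCKAP1L these were RUNX1, a core factor of blood stem cells, at 554, 368, 231 and 249 CPM against 15.3 to 20.7 CPM (log2 fold change 4.08, SE 0.30), PTPRC and ARHGDIB. PTPRC, which encodes CD45, had 50.3, 66.8, 32.5 and 0 CPM against 0.503 to 3.38 CPM (log2 fold change 4.60, SE 1.13). That call was lost without Carrier 31 (adjusted p = 0.0535) or Inflachromene 11 (0.0970). WAS, the Wiskott-Aldrich gene, was lower (log2 fold change -2.51, SE 0.99), and its call was lost when any 1 of the 4 libraries was left out. The summed level of the 7 was 369 to 856 CPM in selected, 136 to 275 CPM in other shallow and 106 to 131 CPM in deep barcodes. Of their 360 counts in selected barcodes 200 came from RUNX1 and 92 from NCKAP1L. None of the 7 was at 0 in the selected barcodes. Of the list 2 were also higher than in other shallow barcodes and 0 of 6 tested were lower.

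Markers of particular blood lineages were sparser. Of 20 myeloid markers 9 were measured, with 1 higher and 1 lower. SPI1, which encodes PU.1, had 151, 226, 162 and 181 CPM against 19.8 to 23.8 CPM (log2 fold change 3.02, SE 0.38, edgeR adjusted p = 7.09e-14). TYROBP, the adaptor DAP12, had 1 count in all and was lower (log2 fold change -3.96, SE 1.46), a call lost when Carrier 31, Inflachromene 11 or Inflachromene 35 was left out and with IKZF1 alone as the selecting gene. The summed level of the 9 was 227 to 351 CPM in selected and 135 to 156 CPM in deep barcodes, with 124 of 186 counts from SPI1. The median of the 9 was -0.33, and CD68 (log2 fold change -1.92, adjusted p = 0.0638) and CD14 (-1.54, adjusted p = 0.255) did not pass. Of 9 B cell markers 4 were measured and 2 were higher, EBF1 (log2 fold change 1.94, SE 0.64) and BLK (2.19, SE 0.82). Both lost their calls without Carrier 31 or Inflachromene 11 and with IKZF1 alone as the selecting gene, EBF1 also by DESeq2 (adjusted p = 0.0517), and BLK when either of the other libraries was left out. Of 5 measured T and NK markers none passed in either direction. GATA3 was at 0 in all selected barcodes, against 4.33 to 6.03 CPM in deep ones. The part of these marker genes in the other differences was not tested.

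Lists of other tissues had few members measured. Among 4 endothelial markers measured (of 16) none passed; ERG was at 0 in selected barcodes and CLDN5 had 101, 16.7, 0 and 30.1 CPM against 3.59 to 6.0 CPM (log2 fold change 2.11, adjusted p = 0.0805). Of 7 fibroblast and mural markers 3 were lower and 1 higher. COL1A1, the main collagen chain, had 0, 4.18, 73.0 and 15.1 CPM against 72.8 to 98.4 CPM (log2 fold change -1.77, SE 0.52), RGS5 and ACTA2 were lower, and PDGFRA was higher (2.41, SE 0.89). All 4 of these calls were lost without Carrier 31, and all but that of COL1A1 without Inflachromene 11. That of COL1A1 was also lost without Carrier 12, and that of PDGFRA when any 1 library was left out or IKZF1 alone selected (adjusted p = 0.241). PDX1, the pancreatic master regulator, was at 0 in the selected barcodes against 10.5 to 13.5 CPM in deep ones, a call lost when any 1 library was left out or IKZF1 alone selected (adjusted p = 0.0791). It was 1 of only 2 pancreatic markers measured. Of 3 Schwann cell and nerve markers measured 1 was higher and 0 lower, and of 3 epidermal and secretory ones none passed. The summed level of the 3 Schwann cell and nerve markers was 309 to 464 CPM in selected and 142 to 169 CPM in deep barcodes, and 221 of their 256 counts came from 1 gene. This was ERBB3, a growth factor receptor, which had 327, 405, 304 and 271 CPM against 100.5 to 120 CPM (log2 fold change 1.48, SE 0.26). Of 14 markers of the Panc1 carcinoma cell measured, 3 were lower and 1 higher (median log2 fold change -1.03, the same with genes at 0 set at their bound). S100A6 was lower (-2.15, SE 0.60), as were CCN1 and ITGA3, while AXL, a receptor kinase, had 201, 272, 162 and 105 CPM against 38.9 to 50.1 CPM (1.97, SE 0.34). S100A6, CCN1 and ITGA3 did not pass without Carrier 31, CCN1 also not without Inflachromene 11 or Inflachromene 35, and ITGA3 also not without Carrier 12 or Inflachromene 11. The summed level of the carcinoma markers was 550 to 706 CPM in selected and 709 to 845 CPM in deep barcodes.

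HMGB2 is often listed with genes of dividing cells, most of which were lower or did not pass. Of 24 genes of the G2/M phase and mitosis 13 were lower and 2 higher, the 2 being HMGB2 and PLK1 (median log2 fold change -1.66). TPX2, a spindle assembly factor, had 25.2, 0, 40.6 and 7.53 CPM in selected barcodes against 93.2 to 115 CPM in deep ones (log2 fold change -2.68, SE 0.53). CENPA, the centromeric histone, was seen in Inflachromene 35 only, at 15.1 CPM against 50.2 to 57.6 CPM (log2 fold change -4.12, SE 0.99). CCNB2, a mitotic cyclin, had no count in selected barcodes. Among 8 high mobility group genes 3 were higher and 2 lower. HMGN2, a nucleosome-binding protein, had 352, 230, 235 and 196 CPM against 52.2 to 67.0 CPM (log2 fold change 1.92, SE 0.30). HMGA1, an architectural protein of AT-rich DNA, was higher by 1.71 (SE 0.30) and HMGA2 lower (log2 fold change -1.86, SE 0.61; not passing without Carrier 12, Carrier 31 or Inflachromene 11). The median of the 8 was 0.55, and -0.05 by DESeq2.

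Of 42 homeobox and other developmental regulators measured, 12 were higher (28.6%, against 13.5% of all gene ends) and 6 lower. MEIS1, a homeobox cofactor of HOX proteins active in blood stem cells, had 201, 272, 154 and 113 CPM in selected barcodes against 6.52, 11.1, 14.6 and 14.6 CPM in deep ones (log2 fold change 3.88, SE 0.42). HOXB4, a homeobox gene of stem cells, had 151, 217, 150 and 158 CPM against 29.9 to 35.4 CPM (log2 fold change 2.37, SE 0.37). The HOX cofactor PBX3 was higher by 1.75 on the log2 scale. The median of the list was 0.21, but -0.48 by DESeq2, which called 7 higher and 11 lower.

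**Figure D3:**
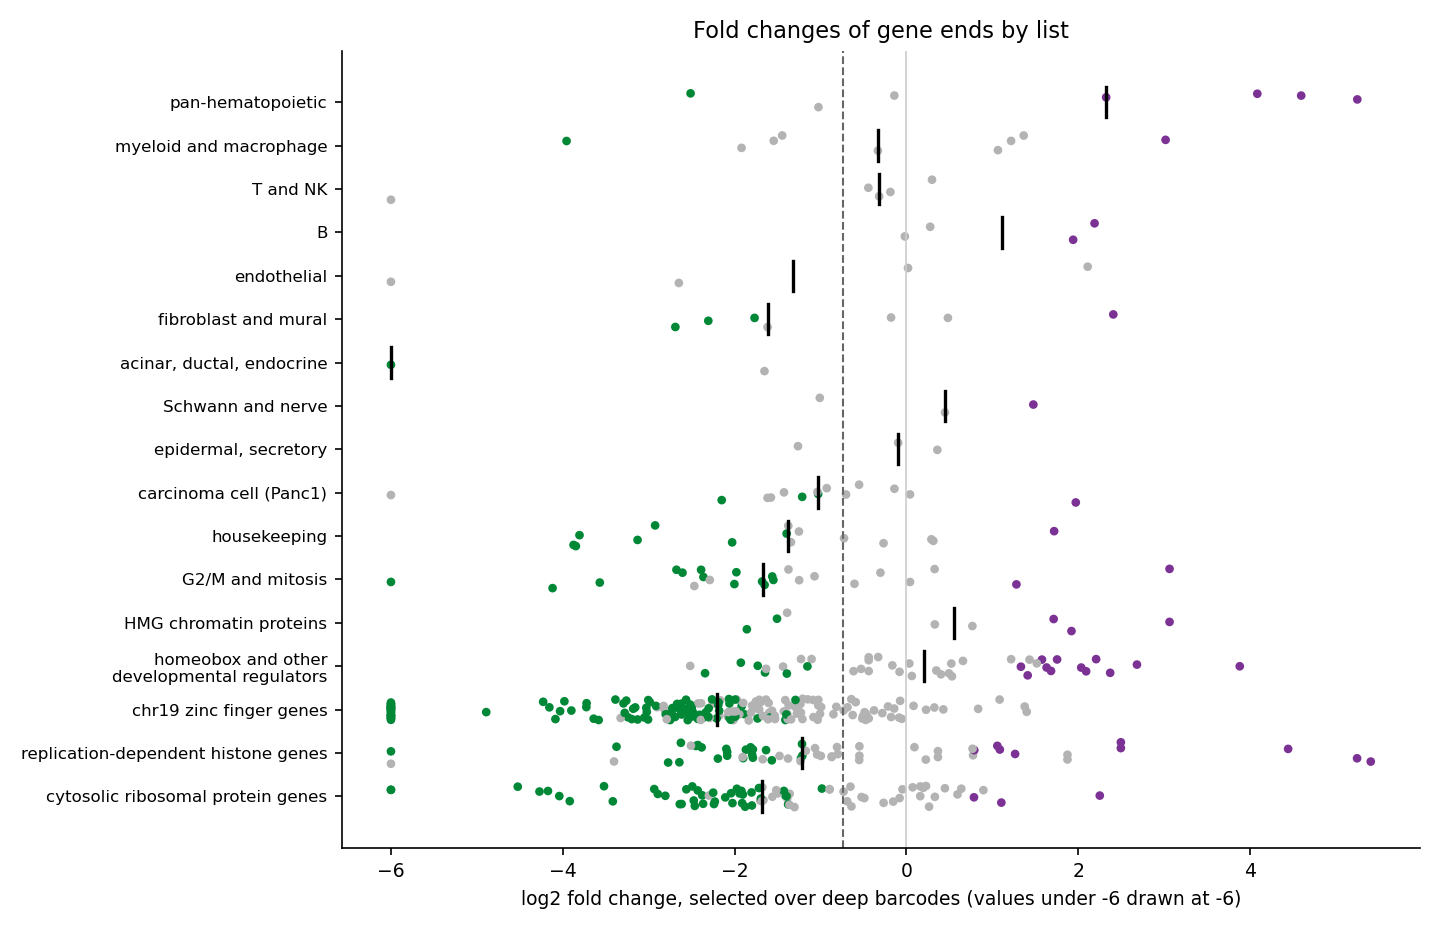
log2 fold change of each measured gene end, selected over deep barcodes (x axis), by gene list (y axis); purple points were higher and green points lower at an edgeR adjusted p under 0.05, grey points did not pass, black bars are list medians and the dashed line is the median of all gene ends (-0.74). No zinc finger gene of chromosome 19 is among the purple points, and the homeobox list has 12.

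Regions away from gene boundaries gave the largest folds. Of 50757 consensus regions tested, 1479 (2.91%) were higher and 8349 (16.4%) lower in the selected than in the deep barcodes. Scaled by library totals without TMM factors the counts were 2357 higher and 3303 lower, and the median log2 fold change moved from -2.14 to -1.60. DESeq2 called 1856 higher and 28966 lower. Without Carrier 31, 970 were higher and 1192 lower, and the calls in both directions together fell from 9828 to 5846 without Carrier 12, 2745 without Inflachromene 11 and 3892 without Inflachromene 35. Regions open in the selected barcodes alone, with 0.508% of all counts, could lack a peak. Regions with a peak in 1, 2 or 3 libraries were left out. In Carrier 12, Carrier 31, Inflachromene 11 and Inflachromene 35 the regions kept held 90.2%, 87.5%, 82.8% and 82.8% of selected counts. For deep barcodes these were 87.9%, 89.9%, 89.7% and 83.1%. Regions with a peak in 1 library alone took 2.56%, 2.92%, 6.96% and 5.72% of selected counts. They took 3.23%, 2.28%, 2.68% and 5.92% of deep counts. How this choice moves the balance of calls was not tested. Regions within 1 kb of a gene boundary were higher in 6.48%, those further off inside a gene in 2.32% and those outside genes in 1.01%; they were lower in 27.8%, 11.6% and 13.5%. Of 109 regions at least 64-fold higher, in all 4 libraries and with at least 20 counts in selected barcodes, 5 lay within 1 kb of a gene boundary, 54 further off inside genes and 50 outside. These 109, chosen for their level in the selected barcodes, held 3.25% of the counts there.

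The region at chr1:72895588-72896542, which lies 613049 bases from the nearest gene boundary (NEGR1, a neuronal adhesion gene), held 458 counts in selected barcodes out of 1364 in all barcodes. It stood at 453, 827, 576 and 753 CPM in the selected barcodes of Carrier 12, Carrier 31, Inflachromene 11 and Inflachromene 35, against 0.983, 1.44, 1.89 and 0.455 CPM in deep ones (503-fold over the expected counts). A region inside ST6GAL2, a sialyltransferase gene (chr2:106876170-106877072), had 604, 368, 211 and 332 CPM against 0.268 to 0.797 CPM (562-fold). The other 3 regions named by size of rise had ACVR2A, DCC and LOC105372073 as their nearest genes. They lay 265794 bases (chr2:147577820-147578723, 617-fold), 434182 bases (chr18:51905118-51906015, 556-fold) and 764643 bases (chr18:38539331-38540232, 501-fold) from them, in that order. Each held between 27.5% and 35.5% of its counts in the selected barcodes, which make up 0.508% of all counts. In the other direction a region 7244 bases from MYO1G (chr7:44986259-44987172) had 63.8 to 80.0 CPM in deep barcodes and 0 in selected ones (at least 8.33-fold lower). The regions next by log2 fold change, a rank that favours zeros, also had no count. Among them were one at chr20:28602397-28603310 (at least 7.98-fold lower), one near NEMF (7.21-fold) and one near DAG1 (6.57-fold).

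The regions most used by the selected barcodes were shared between mice. For each library the 500 regions with the most counts in the selected barcodes of the other 3 libraries held 16.9%, 18.7%, 15.2% and 13.1% of its own selected barcodes' counts. The ranking did not use that library's counts, but every region had to have a peak in all 4 libraries, that one included. They held 4.82%, 6.76%, 5.94% and 4.13% of the counts of other shallow barcodes and 2.72%, 3.37%, 3.26% and 2.73% of those of deep barcodes. Barcode by barcode, 33 of 35, 97 of 101, 134 of 145 and 67 of 81 selected barcodes had over 10% of their counts there, against 0 of 5315 deep barcodes. Of the other shallow barcodes 274 of 1127, 126 of 646, 322 of 1220 and 148 of 1096 did too, so barcodes with the same regions are more numerous than those the rule finds. The 12 selected barcodes of 5000 to 10000 counts numbered 1, 2, 5 and 4 in Carrier 12, Carrier 31, Inflachromene 11 and Inflachromene 35. Outside Carrier 31 they held less of their counts in the 500 regions than the shallower selected barcodes. In Carrier 12, Inflachromene 11 and Inflachromene 35 they had 4.05%, 3.19% and 2.59% of their counts in these regions, near the deep barcodes, and 18.0% in Carrier 31. HMGB2 had 0, 0 and 0 CPM in those of Carrier 12, Carrier 31 and Inflachromene 11, and 138 CPM in those of Inflachromene 35. At the HMGB2 level of the shallower selected barcodes 3.56, 5.21, 18.4 and 16.2 counts were expected in these barcodes of the 4 libraries, and at the deep level 0.399, 0.578, 1.87 and 1.27; 0, 0, 0 and 4 were found.

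**Figure D4:**
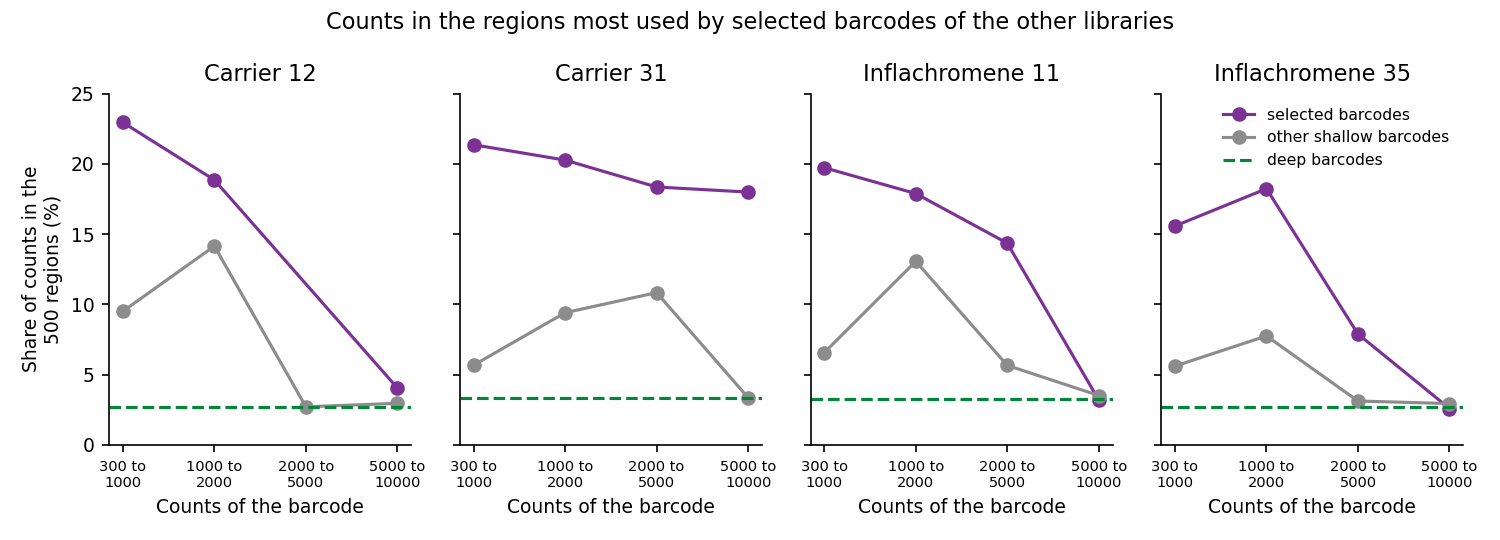
Share of counts (y axis, percent) in the 500 regions most used by selected barcodes of the other 3 libraries, by total counts of the barcode (x axis) for selected (purple) and other shallow (grey) barcodes; the dashed line is the deep barcodes of the library. Selected barcodes of 300 to 2000 counts lie at 15.6% to 22.9%, and those of 5000 to 10000 counts near the dashed line except in Carrier 31.

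Gene ends took 57.4%, 57.0%, 52.0% and 49.2% of the selected barcodes' counts in Carrier 12, Carrier 31, Inflachromene 11 and Inflachromene 35, against 44.6%, 48.2%, 49.2% and 42.1% in deep barcodes. By chromosome, the share of counts on chromosome 19 was 6.63%, 5.35%, 5.41% and 5.51% in selected and 7.90%, 8.17%, 8.27% and 7.41% in deep barcodes. Its mean log2 ratio of -0.48 was the lowest, and those of chromosomes 13 (0.49), 21 (0.45) and 4 (0.42) were the highest. The 2 Mb window at 38 to 40 Mb of chromosome 19, part of the known Panc1 amplification, ranked 1 of 1440 windows in deep barcodes at 17470 to 19512 CPM. In selected barcodes it stood at 8809, 3843, 5434 and 6525 CPM, or 0.283 of the expected counts. Named after their values were seen, AKT2, a survival kinase that lies just beyond the window (chr19:40230317-40285345), had lower values (352, 75.2, 134 and 226 CPM against 741 to 791 CPM, log2 fold change -2.30, SE 0.24), as had PAF1 within the window, a subunit of the elongation complex of that name (log2 fold change -2.42, SE 0.25). Other shallow barcodes had 14440 to 15670 CPM in the window. Although lower, the window still ranked 1, 13, 2 and 1 of 1440 among the selected barcodes' own windows.

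**Figure D5:**
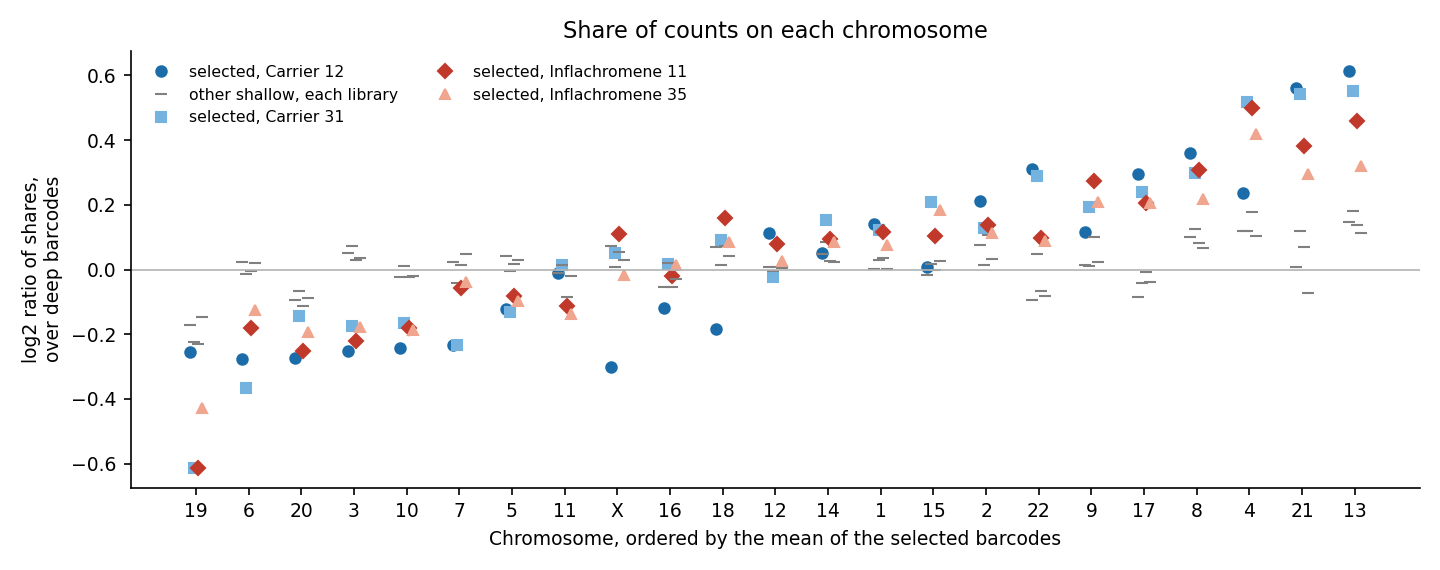
log2 ratio of the share of counts on each chromosome, over deep barcodes of the same library (y axis), for selected barcodes (coloured symbols, 1 per library) and other shallow barcodes (grey dashes), with chromosomes ordered by the mean of the selected ones (x axis). Chromosome 19 is lowest (mean -0.48) and chromosome 13 highest (0.49), while other shallow barcodes stay nearer 0.

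Promoter sequences are described by their letters. RefSeq start windows of 300 bases matched 10489 of the gene ends by symbol, and 9153 of these windows overlapped the gene's region. Median GC content was 68.3% for the 1242 windows of higher gene ends, 64.0% for the 2410 of lower ones and 66.0% for all. A CCAAT box on either strand was present in 40.7% of higher, 43.9% of lower and 37.9% of all windows, so the boxes shown for H2AC25 and TEF on one side and WDR6 and PSMA3 on the other are common in both. GAGGAAGT, which the blood cell factor PU.1 can read, was in 2.50% of higher, 1.95% of lower and 2.1% of all windows. The ETS letters CCGGAAGT were in 7.89% of higher, 13.4% of lower and 9.83% of all, and the GC box GGGCGG in 81.1%, 72.6% and 74.4%. CCGGAAGT and GAGGAAGT share the core GGAAGT. A match of letters is a description and not a site in use.

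Within the selected barcodes, no gene end passed the test between Inflachromene and Carrier. Of 3699 gene ends tested 0 passed (edgeR, smallest adjusted p = 0.862), 67 (1.81%) had an unadjusted p under 0.05, and DESeq2 called 0. Without Carrier 12, which holds the fewest counts, 14 passed, all higher under Inflachromene, and without Carrier 31 2 passed. The smallest p belonged to CDK13, a transcription-associated kinase, at 0 and 16.7 CPM in Carrier 12 and Carrier 31 and 183 and 181 CPM in Inflachromene 11 and Inflachromene 35 (log2 fold change 3.94, SE 0.77, adjusted p = 0.862). ZCWPW1, a histone reader of meiosis, had 50.3 and 0 against 170 and 121 CPM, and ARHGEF1, an exchange factor of RhoA, 0 and 0 against 114 and 60.3 CPM. CDK13, ZCWPW1 and ARHGEF1 passed without Carrier 12 (adjusted p = 0.00786, 0.000107 and 0.0132). Each of these fits leaves 1 Carrier library, which is assumed to vary like the 2 Inflachromene libraries. On the lower side ARID1A, a subunit of the BAF complex, had 453 and 631 CPM under Carrier against 248 and 196 CPM under Inflachromene (log2 fold change -1.02, SE 0.34). HES7 (-1.38) and SLC2A1, the glucose transporter GLUT1 (-1.82), followed. ARID1A shares its region with LOC124900417 and HES7 with ALOXE3, so their values cannot be told apart. For HMGB2 the difference was 0.45 (SE 0.33). The change from deep to selected barcodes passed a test of its difference between treatments at none of 12812 gene ends (edgeR, smallest adjusted p = 0.254; 365 at an unadjusted p under 0.05; DESeq2 0).

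Barcodes selected by IKZF1 alone and by BPIFB1 alone were set against each other in the 3 libraries that have both. Of 1716 gene ends tested 1 passed (0.0583%) and 54 had an unadjusted p under 0.05. That gene end, chosen after its value was seen, was MEIS2, a homeobox gene, at 222, 107 and 235 CPM in BPIFB1 barcodes and 24.9, 17.5 and 0 CPM in IKZF1 barcodes of Carrier 31, Inflachromene 11 and Inflachromene 35 (log2 fold change, IKZF1 over BPIFB1, -3.45, SE 0.80, edgeR adjusted p = 0.0279). DESeq2 (0.999), no filter on low counts (0.172), library totals without TMM (0.354) and leaving out any of the 3 libraries each ended that call. HMGB2 had 598, 439 and 253 CPM in IKZF1 and 435, 373 and 495 CPM in BPIFB1 barcodes, a log2 difference of -0.18 (SE 0.30). H2AC25 had 1184, 956 and 658 against 955, 995 and 495 CPM, a log2 difference of -0.01 (SE 0.18).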

How the data were processed

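Chromatin accessibility was measured in nuclei of 4 libraries (2 Carrier, 2 Inflachromene) with 10x Chromium reagents, per the labels' protocols. For each library the authors deposited a peak list and raw counts, whole numbers for each peak in each barcode. Cell Ranger ATAC 2.1.0 and Cell Ranger ARC were used with the build GRCh38, per the submitters' processing notes. The settings, and how reads of the host genome were treated, are not given in the sources used. Peaks were called per library, so that no count exists where a library lacks the peak. A marker open in few barcodes could thus go unmeasured.

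The selected barcodes, gene lists and rules for named genes were chosen with earlier results of these data known. Peaks of the 2 selecting genes were left out. Counts were summed per library and class (selected, other shallow, deep). A gene end is the sum of peaks within 1 kb of either boundary of a protein-coding gene (RefSeq table, GRCh38.p14), used where all 4 libraries had a peak (12812). Consensus regions are peaks merged by 1 bp overlap with a peak in all 4 libraries (50771). CPM is a feature's share of the counts of its class times 1000000. Some genes share a region, and their values are then 1 measurement.

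For differences edgeR 4.0.16 (in R 4.3.3) was used with TMM, filterByExpr and the quasi-likelihood F test, the library as a block for classes, Benjamini-Hochberg adjustment over all features tested and a threshold of 0.05. The block pairs sums from the same mouse. Each SE is the size of the log2 fold change divided by the square root of its F value. It thus carries the same pooled spread as the p-value. TMM factors of the selected barcodes were 1.45 in Carrier 12 and 0.872 to 0.975 elsewhere for gene ends. The code was tested on simulated data. Shares have exact Clopper-Pearson intervals (scipy 1.17.1). The tests of the treatment interaction and of IKZF1 against BPIFB1 barcodes, and 2 alternatives (no barcodes present in more than 1 library, IKZF1 alone), were added after seeing the data. DESeq2 1.42.0 was an alternative. No doublet caller was run.

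Named were HMGB2, then up to 15 gene ends in each direction that passed, moved alike in all 4 libraries and had at least 20 counts (higher) or 20 expected (lower), by size of fold change. Up to 4 members per list by smallest p, 5 regions per direction and 3 gene ends per direction for treatment were also named; a few of these are not reported here. A list is described by its counts and median. Promoter sequences came from RefSeq's table, which holds no entry for HMGB2.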

Additional observations from a re-analysis of the deposited data

Results flagged for a closer look

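Barcodes under 300 counts lie outside every comparison, yet 13 of 4802 of them had counts near BPIFB1 or IKZF1, 28 counts in all or 31.3 CPM. The level in the 5315 deep barcodes was 3.63 CPM, from 433 counts in 232 barcodes. No group of libraries was large enough to look for outlying values.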

How the results depend on the processing

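The selected barcodes of Carrier 12 hold 39809 counts, so that low levels were not detectable there. The log2 fold change of HMGB2, given as a description, was 2.48 to 3.19 over the alternatives run. The difference in share between treatments was -0.135 percentage points with IKZF1 alone and ranged from -1.93 to 2.34 when a library was left out. Gene ends called against deep barcodes numbered 7658 without the replicate block and 2085 to 3883 when a library was left out. Against other shallow barcodes they numbered 5233 without the block and 1047 to 2532. Consensus regions called were 30822 by DESeq2, 19323 with an upper bound of 5000 counts and 29992 without the block. They were 5660 by library totals alone and 2162 to 5846 when a library was left out. Library totals scale the same counts otherwise, while DESeq2 differs in its scaling and in its model and test. The upper bound and the left-out libraries use fewer barcodes or samples, and the fit without the block uses the same ones. The cause of these shifts was not tested. Between treatments within the selected barcodes 1 gene end passed without a filter and 0 to 14 when a library was left out. Between IKZF1 and BPIFB1 barcodes 0 passed by DESeq2, without a filter, by library totals and without any of the 3 libraries. Of 1399 further values of 109 results on 94 named genes and regions, 1326 stayed on their side of the threshold, 69 lost the call, 4 gained it and 0 changed direction. Left-out libraries and the choice of selecting gene are named beside the calls they changed. No paired analysis was possible between treatments because Carrier and Inflachromene mice share no replicate numbers.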
